A study of Mus musculus with 6 samples.

Results

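The 9 genes of glycogen synthesis and breakdown, Pgm1, Pgm2, Ugp2, Gyg, Gys1, Gbe1, Ppp1r3c, Pygl and Pygb, were followed in E12.5 lateral cortex. They were chosen by name, as a list of glycogen enzymes and of 1 regulator. This choice, and that of the lists set beside it below, was made with earlier results of these data known. All 9 of the 9 were among the 17068 genes of the deposited count table. RNA came from 6 female embryos of strain c57/bl6. Controls 1, 2 and 4 were Foxp1 fl/+ and control 3 was Foxp1 fl/fl, all without Cre. The other 2 embryos were Foxp1 fl/fl;Emx1Cre and are called Foxp1cKO. Emx1 drives Cre in progenitors of the dorsal telencephalon and their descendants, so vessels, blood and other cells from elsewhere keep the floxed allele. No control carried Emx1Cre, so the effects of Cre and of the deletion cannot be told apart, and no control was wild type at Foxp1.

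Libraries held 50076008 to 78346979 counts on genes, and 3 counts corresponded to 0.0381 to 0.0596 CPM (counts scaled to a common library size by TMM). That floor covers counting error only. Foxp1 itself, at 59.7 to 79.1 CPM in the controls, had 83.2 and 76.8 CPM in the libraries labelled Foxp1cKO. It was not lower there (log2 fold change 0.24, SE 0.129, edgeR adjusted p = 0.468), although counts summed over all exons cannot isolate the floxed ones. Directions below therefore rest on the labels. The dorsal telencephalic markers Emx1, Emx2 and Lhx2 were detected in every library, summing to 368.2 to 870.2 CPM. Sums for red cell markers were 1100 to 1451 CPM in controls 1 to 3, 3544 CPM in control 4, and 3849 and 4143 CPM in the libraries labelled Foxp1cKO. Most of that sum was Hbb-y, at 754.1 to 2339.6 CPM in the controls and 2454.1 and 2739.4 CPM in the others. Of the 9 red cell markers, 8 had a log2 fold change above 0 and 1, Hbb-bs, below 0. Mural cell markers summed to 195.1 to 231.1 CPM in the controls and to 290.1 and 286.1 CPM in the libraries labelled Foxp1cKO. Notch3 made up most of that sum, at 119.6 to 159.6 CPM in the controls and 176.9 and 167.1 CPM in the others. Of the 7 mural markers, 4 had both libraries labelled Foxp1cKO above all controls, against 11.5% of all genes. The other 3, Pdgfrb, Kcnj8 and Anpep, overlapped. Endothelial markers summed to 153.2 to 233.8 CPM in the controls and to 211.2 and 261.1 CPM in the others, so these sums overlapped. Sums for microglia, meningeal fibroblast, choroid plexus, radial glia, intermediate progenitor, neuron, dorsal and ventral telencephalon markers overlapped between the groups as well. The part of these cell types in the results below was not tested.

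Glycogen is a branched polymer of glucose that cells keep as a local reserve. Phosphoglucomutase turns glucose 6-phosphate into glucose 1-phosphate, UDP-glucose pyrophosphorylase activates it, glycogenin starts a chain on itself, glycogen synthase lengthens the chain and a branching enzyme branches it. Glycogen phosphorylase releases glucose 1-phosphate again, and phosphoglucomutase returns it to glycolysis. In the mature brain glycogen lies mainly in astrocytes, which have not yet formed at this age. In cultured cells under low oxygen, several of these genes are known targets of the hypoxia-inducible factors, which bind a short core sequence.

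The stretch before the RefSeq start site is shown for the 4 genes whose libraries did not overlap between the groups, and for Pgm2 as the paralogue of Pgm1. Each is written 5′ to 3′ on the strand of its gene (RefSeq, GRCm38.p6), and capitals mark the core letters ACGTG or GCGTG read on either strand. Bases that GENCODE M21 places in a first exon were left off.

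Pgm1, chr4:99929201-99929413, plus strand: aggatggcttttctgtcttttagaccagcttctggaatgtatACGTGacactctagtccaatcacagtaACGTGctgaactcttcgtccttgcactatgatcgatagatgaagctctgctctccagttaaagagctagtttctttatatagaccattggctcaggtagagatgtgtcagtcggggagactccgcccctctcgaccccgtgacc

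Pgm2, chr5:64092689-64092938, plus strand: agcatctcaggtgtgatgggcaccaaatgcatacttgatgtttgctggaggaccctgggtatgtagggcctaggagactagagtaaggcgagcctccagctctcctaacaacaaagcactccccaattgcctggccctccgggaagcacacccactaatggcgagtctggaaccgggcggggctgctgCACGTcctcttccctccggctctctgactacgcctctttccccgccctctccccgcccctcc

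Gys1, chr7:45434589-45434838, plus strand: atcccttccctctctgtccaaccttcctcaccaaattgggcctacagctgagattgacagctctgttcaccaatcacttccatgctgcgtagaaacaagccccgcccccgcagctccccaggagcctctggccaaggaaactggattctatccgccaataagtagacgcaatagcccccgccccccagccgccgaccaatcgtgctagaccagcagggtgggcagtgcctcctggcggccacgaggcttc

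Ppp1r3c, chr19:36736654-36736854, minus strand: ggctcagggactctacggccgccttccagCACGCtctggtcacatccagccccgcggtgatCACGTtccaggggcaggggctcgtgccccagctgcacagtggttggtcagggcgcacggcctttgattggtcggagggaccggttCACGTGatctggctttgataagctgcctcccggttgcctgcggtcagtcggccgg

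Pygl, chr12:70227684-70227933, minus strand: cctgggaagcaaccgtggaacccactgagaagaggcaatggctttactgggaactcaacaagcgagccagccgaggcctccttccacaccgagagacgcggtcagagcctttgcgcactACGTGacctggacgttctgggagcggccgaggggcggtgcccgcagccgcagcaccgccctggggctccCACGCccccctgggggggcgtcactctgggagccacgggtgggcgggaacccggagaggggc

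Pgm1 held 2 matches to the core, both as ACGTG on its own strand, 208 and 181 bases before its start site. Pygl held 2, at 131 and 62 bases. Ppp1r3c held 4, at 221, 189, 104 and 103 bases, and the last pair were the overlapping strands of 1 CACGTG palindrome. Pgm2 had 1 match at 62 bases, and Gys1 had 0 in this window. Of the genes not shown, whose libraries overlapped between the groups, Pygb held 2, at 163 and 92 bases, and Gyg 1, at 217 bases. Over 250 bases, 7 of the 9 genes had a match in at least 1 start site window, all but Gys1 and Gbe1. Counted by windows it was 7 of 10, against 38.6% of all 32851 RefSeq promoter windows of that length. Ugp2 has 2 listed start sites, with 6 matches before one and 0 before the other. The forkhead letters TGTTTAC occurred in 0 of the 9 genes, and in 3.17% of all windows. CACGTG was found before Ppp1r3c alone among the 9, and in 6.02% of all windows. These matches describe letters and do not show binding, and a Pygl transcript in GENCODE M21 starts further upstream than the site used here.

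Across the 9 genes, 4 had both libraries labelled Foxp1cKO above all 4 controls, namely Pgm1, Gys1, Pygl and Ppp1r3c, against 11.5% of all genes. None of the 9 had both libraries below all controls, where 13.1% of all genes did, and the other 5 overlapped. The same 4 had an unadjusted p under 0.05 in edgeR's quasi-likelihood test in the higher direction, against 6.53% of all genes. After adjustment over all genes, 0 of the 9 passed 0.05 in either direction, and 0.152% of all genes passed, every one of those being higher. DESeq2's Wald test on the same groups passed 3 of the 9 (Pgm1, Gys1 and Pygl, all higher) and 2.06% of the 15067 genes it adjusted in that direction. limma on the deposited VST values passed 0 of the 9. The median log2 fold change over the 9 genes was 0.14, and over all genes it was -0.0044. In bulk tissue, a change in the number of cells of a type and a change in RNA per cell cannot be told apart.

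**Figure D1:**
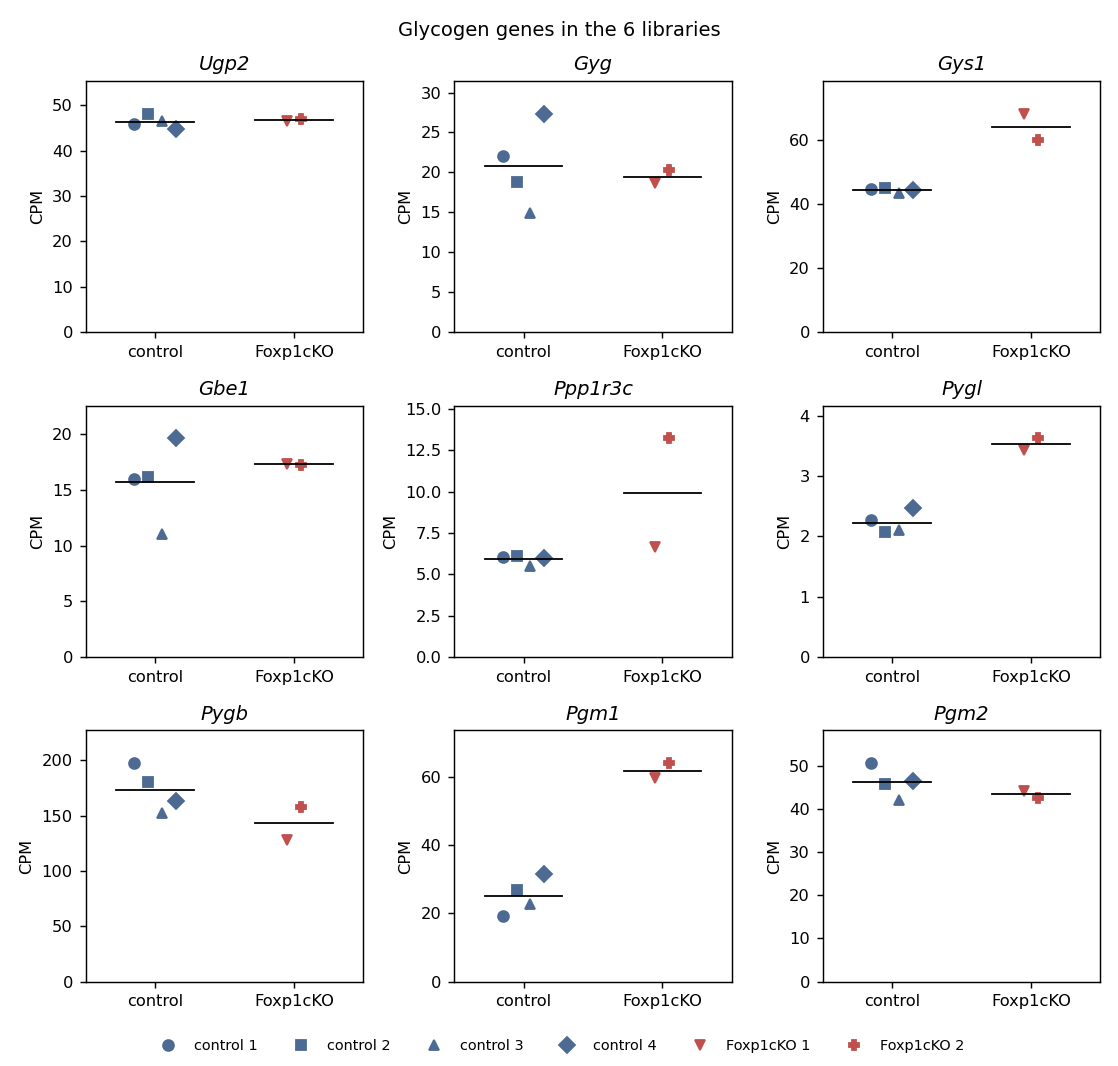
CPM of each of the 9 genes (vertical axes, each from 0) in the 4 control libraries (blue) and the 2 libraries labelled Foxp1cKO (red), with 1 symbol per library and a line at each group's mean. Pgm1 and Pygl are separated between groups with little spread in the red points. Gys1 is separated too, with a wider spread in its red points than in its blue ones. Ppp1r3c is separated by 1 library more than the other, and the other 5 genes overlap.

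Pgm1 (ENSMUSG00000025791.18, chromosome 4, 99929414 to 99987294, plus strand) encodes the main phosphoglucomutase, which interconverts glucose 1-phosphate and glucose 6-phosphate. RefSeq lists Pgm2 as a synonym of this gene and Pgm1 as a synonym of Pgm2, so the identifiers decide. Its level was 19.3, 27.0, 22.6 and 31.7 CPM in controls 1 to 4, and 59.7 and 64.0 CPM in the libraries labelled Foxp1cKO. Control 4 was the highest control and still lay well under either of them. The means were 25.2 ± 5.36 CPM (SD, n = 4) and 61.8 ± 3.10 CPM (SD, n = 2), a 2.46-fold difference. On the log2 scale it was 1.30 (SE 0.182, 95% interval 0.87 to 1.73, edgeR adjusted p = 0.0747), the highest of the 9 genes. DESeq2 gave 1.30 with an adjusted p of 1.09e-07, and over the 13 alternatives the adjusted p ran from 1.09e-07 to 0.453. Without control 4 the gene passed the threshold in edgeR as well (log2 fold change 1.43, adjusted p = 0.0192). Controls spread by a CV of 21.3%, where counting alone would give 2.39%. Exons of Pgm1 share 398 bases with Itgb3bp on the opposite strand, which had 19.7 to 30.7 CPM in the controls and 28.7 and 25.8 CPM in the libraries labelled Foxp1cKO (log2 fold change 0.23, edgeR adjusted p = 0.638).

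Pgm2 (ENSMUSG00000029171.12, chromosome 5, 64092950 to 64128351, plus strand) encodes a related enzyme that prefers pentose phosphates. It had 50.6, 45.8, 42.1 and 46.5 CPM in controls 1 to 4 and 44.3 and 42.6 CPM in the libraries labelled Foxp1cKO. Both of the latter fell inside the control range. The log2 difference was -0.090 (SE 0.0921, 95% interval -0.31 to 0.13, edgeR adjusted p = 0.71). Per length, Pgm1 was below Pgm2 in every control and above it in both libraries labelled Foxp1cKO. Of the summed RPKM (CPM per kilobase of exon) of the pair, Pgm1 made up 25.3%, 34.4%, 32.3% and 37.7% in controls 1 to 4, and 54.4% and 57.1% in the libraries labelled Foxp1cKO. The ratio of Pgm1 to Pgm2 was thus 0.339 to 0.604 in the controls and 1.20 and 1.33 in the others, a 2.66-fold difference (log2 1.41). The exact two-sided permutation test on that ratio gave p = 0.0667, the smallest that 4 libraries against 2 can give over their 15 arrangements. Leaving out any 1 library kept the log2 ratio difference between 1.25 and 1.52.

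**Figure D2:**
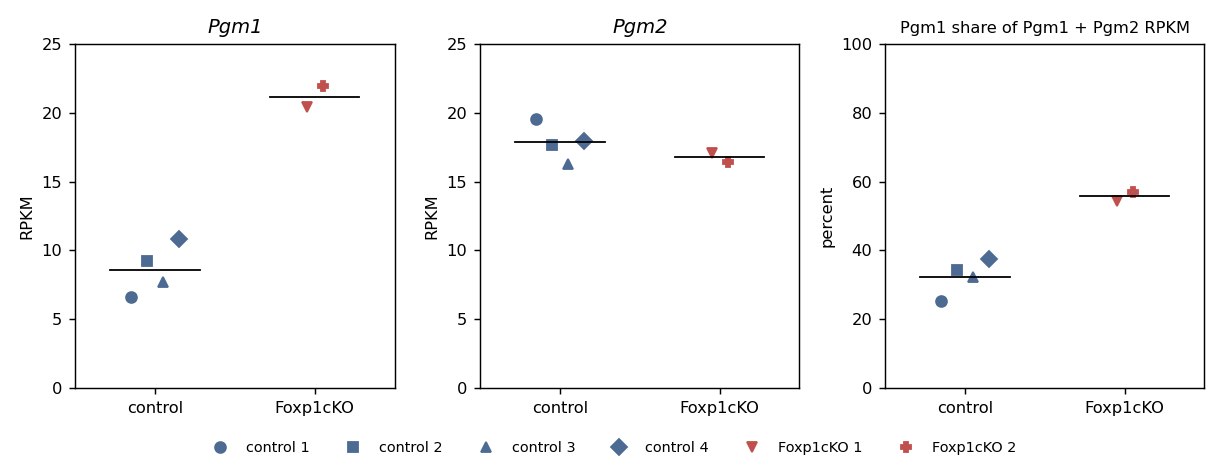
RPKM of Pgm1 and of Pgm2 on the same vertical scale, and the share of Pgm1 in their summed RPKM in percent, with 1 symbol per library and a line at each group's mean. Pgm1 passes from 25.3% to 37.7% of the pair in the controls to 54.4% and 57.1% in the libraries labelled Foxp1cKO, while the Pgm2 points overlap.

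Ugp2 (ENSMUSG00000001891.16, chromosome 11, 21321138 to 21371201, minus strand) encodes UDP-glucose pyrophosphorylase, which makes the glucose donor for glycogen and for other sugar chains. It had 45.9, 48.1, 46.5 and 44.7 CPM in the controls and 46.4 and 46.9 CPM in the libraries labelled Foxp1cKO. All 6 values lay within a narrow band. The log2 difference was 0.011 (SE 0.0712, edgeR adjusted p = 0.966), and its 95% interval of -0.16 to 0.18 leaves room for a 1.13-fold difference upward at most. The sign of so small a value turned under several alternatives.

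Gyg (ENSMUSG00000019528.18, chromosome 3, 20122084 to 20155317, minus strand) encodes glycogenin, the self-glucosylating primer. It had 22.0, 18.8, 14.9 and 27.3 CPM in the controls, and 18.6 and 20.3 CPM in the libraries labelled Foxp1cKO. The control range enclosed both. Controls had a CV of 25.4%, against 2.63% from counting, the widest among the 9 genes. The log2 difference was -0.093 (SE 0.228, 95% interval -0.63 to 0.44, edgeR adjusted p = 0.893), and without control 4 it was 0.069.

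Gys1 (ENSMUSG00000003865.16, chromosome 7, 45434844 to 45456619, plus strand) encodes the glycogen synthase of muscle and most other tissues. It was the 1 synthase gene found in the table. It had 44.9, 45.0, 43.5 and 44.3 CPM in controls 1 to 4, and 68.2 and 60.0 CPM in the libraries labelled Foxp1cKO. The controls were almost level, with a CV of 1.50% where counting alone gives 1.81%, and the libraries labelled Foxp1cKO stood clear of them. Means were 44.4 ± 0.664 CPM (SD, n = 4) and 64.1 ± 5.82 CPM (SD, n = 2), a 1.44-fold difference. Its log2 value was 0.53 (SE 0.0784, 95% interval 0.34 to 0.71, edgeR adjusted p = 0.0817). With DESeq2 the adjusted p was 6.89e-06, and it reached 0.524 among the alternatives, when the library labelled Foxp1cKO 1 was left out. The log2 value stayed between 0.43 and 0.60. Gys1 exons share 310 bases with Ruvbl2 on the opposite strand, which had a log2 difference of -0.026.

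Gbe1 (ENSMUSG00000022707.16, chromosome 16, 70313949 to 70569716, plus strand) encodes the branching enzyme. Its level was 16.0, 16.2, 11.0 and 19.6 CPM in controls 1 to 4 and 17.3 CPM in each library labelled Foxp1cKO. Those libraries lay between controls 2 and 4. The log2 difference of 0.14 (SE 0.213, 95% interval -0.36 to 0.64, edgeR adjusted p = 0.818) was smaller than the spread of the controls, whose CV was 22.5%. Control 3, the only Foxp1 fl/fl control, was the lowest of them, and without it the difference was -0.012. That library also stood apart in tissue markers, with a ventral telencephalic marker sum of 379.2 CPM against 115.0 to 184.1 CPM in the other controls, and the lowest dorsal sum, 368.2 CPM. The part of either in its Gbe1 value was not tested. Control 3 was the lowest control for Gyg as well, and control 4 the highest for both genes.

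Ppp1r3c (ENSMUSG00000067279.2, chromosome 19, 36731731 to 36736653, minus strand) encodes a subunit that brings protein phosphatase 1 to glycogen, where it favours synthase and opposes phosphorylase. It had 6.02, 6.12, 5.49 and 5.96 CPM in controls 1 to 4, then 6.64 and 13.2 CPM in the libraries labelled Foxp1cKO 1 and 2. Library 1 was just above the highest control, whereas library 2 was 1.99 times library 1. The mean difference was 1.69-fold (log2 0.75, SE 0.258, 95% interval 0.15 to 1.36, edgeR adjusted p = 0.316), from 373 to 469 counts per control and 334 and 1002 counts in the others. That difference rested on library 2. Without it the log2 value was 0.15, and without library 1 it was 1.16. DESeq2 gave an adjusted p of 0.113, the lowest over its alternatives, whose highest was 0.836.

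Pygl (ENSMUSG00000021069.17, chromosome 12, 70190811 to 70231488, minus strand) encodes the liver-type glycogen phosphorylase. It was the lowest of the 9 genes, at 2.28, 2.08, 2.10 and 2.46 CPM in controls 1 to 4 and 3.44 and 3.63 CPM in the libraries labelled Foxp1cKO. These rested on 129 to 194 counts per control and on 173 and 275 counts. The libraries labelled Foxp1cKO were close to each other and above every control, whose CV of 8.09% was near the 8.05% from counting. The means of 2.23 ± 0.180 CPM (SD, n = 4) and 3.53 ± 0.133 CPM (SD, n = 2) differed 1.58-fold. The log2 value was 0.66 (SE 0.179, 95% interval 0.24 to 1.09, edgeR adjusted p = 0.266). DESeq2 gave an adjusted p of 0.0229. Among the alternatives with both libraries labelled Foxp1cKO, edgeR's adjusted p reached 0.595, without control 2. limma gave a difference of 0.36 in VST values, whose size cannot be set directly against the other log2 values.

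Pygb (ENSMUSG00000033059.7, chromosome 2, 150786735 to 150831758, plus strand) encodes the brain-type phosphorylase. It had 197.5, 180.4, 152.6 and 163.7 CPM in controls 1 to 4, and 128.5 and 158.1 CPM in the libraries labelled Foxp1cKO. Library 1 was under all controls, but library 2 was above control 3. The log2 difference was -0.28 (SE 0.132, 95% interval -0.59 to 0.036, edgeR adjusted p = 0.424). It was -0.13 without library 1 and -0.45 without library 2, so the size rested on library 1. The ratio of Pygl to Pygb per length was 0.00804, 0.00803, 0.00960 and 0.0105 in controls 1 to 4, and 0.0187 and 0.0160 in the libraries labelled Foxp1cKO. That was a 1.92-fold difference, with an exact two-sided permutation p of 0.0667, again the smallest possible. Even so, Pygb made up 96.1% and 96.7% of the summed RPKM of Pygb, Pygl and Pygm in the libraries labelled Foxp1cKO, and 97.5% to 98.3% in the controls. Pygl made up 0.786% to 1.02% in the controls and 1.79% and 1.55% in the others.

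Compared per length, the control order by mean RPKM was Pygb (36.1 ± 4.09 RPKM), Pgm2 (17.9 ± 1.35 RPKM), Ugp2 (15.1 ± 0.462 RPKM), Gys1 (9.28 ± 0.139 RPKM), Gyg (8.86 ± 2.25 RPKM), Pgm1 (8.61 ± 1.84 RPKM), Gbe1 (2.94 ± 0.661 RPKM), Ppp1r3c (2.16 ± 0.103 RPKM) and Pygl (0.323 ± 0.0262 RPKM; SD, n = 4 for each). The ranges of Gys1, Gyg and Pgm1 overlapped, as did those of Gbe1 and Ppp1r3c, so the order within those sets is not resolved. In the libraries labelled Foxp1cKO, Pgm1 stood at rank 2 with 21.2 ± 1.06 RPKM (SD, n = 2), in place of rank 6. Pygb remained first at 29.8 ± 4.35 RPKM and Pygl last at 0.512 ± 0.0192 RPKM. Between them, Gys1 reached 13.4 ± 1.22 RPKM and was below Ugp2 at 15.2 ± 0.103 RPKM. Lengths were those of all exons joined, so a gene that uses few of its annotated exons here reads low on this scale.

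As a description over the 6 libraries, log2 CPM of Gys1, Pygl and Pgm1 correlated at 0.91 to 0.944 with each other, and Gyg with Gbe1 at 0.851. Pygb ran against Gys1 at -0.718. Group membership is shared by every pair, so these values restate the groups in part. Among 13854 genes with a mean of at least 1 CPM, those most like Gys1 included Gng12 and Tnfrsf11b (r of 0.996 and 0.987). Those most like Pgm1 were Zeb1, Cdk6 and Lhx1os (r of 0.998 to 0.994). For Pygl the first was Tmem255a (0.997), for Ppp1r3c Ptk2b (0.992) and for Pygb Tmem176b (0.997). With 6 points and this many genes, such values are reached by many.

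In the rest of the pathway, 23 of 26 listed genes were in the table, and 0 passed edgeR's adjusted threshold in either direction. At an unadjusted p under 0.05, 4 were higher (6.53% of all genes were) and 0 lower. Both libraries labelled Foxp1cKO exceeded all controls for 6 (Galk1, Gaa, Ppp1r3g, Epm2a, Pygm and Phkg1), against 11.5% of all genes. They were under all controls for 1 (Pgm3), against 13.1%. The median log2 fold change was 0.063. DESeq2 passed Galk1 and Gaa, both higher, where it passed 2.06% of the 15067 genes it adjusted in that direction.

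Galk1, the kinase that brings galactose into the pathway to UDP-glucose, had 29.8, 24.7, 19.5 and 33.8 CPM in controls 1 to 4 and 43.4 and 56.2 CPM in the libraries labelled Foxp1cKO (log2 fold change 0.89, SE 0.215, edgeR adjusted p = 0.242). Gaa, the lysosomal glucosidase that degrades glycogen, had 33.6, 35.1, 37.6 and 32.3 CPM against 44.8 and 43.6 CPM (log2 fold change 0.35, SE 0.0863, edgeR adjusted p = 0.242). Ppp1r3g, a relative of Ppp1r3c, had 1.40, 1.74, 1.33 and 2.17 CPM against 2.38 and 4.61 CPM. As with Ppp1r3c, library 2 carried the higher value (log2 fold change 1.08, SE 0.325, edgeR adjusted p = 0.289). Epm2a, which encodes the glycogen phosphatase laforin, had 3.38 to 4.17 CPM in the controls and 4.61 and 5.26 CPM in the others (log2 fold change 0.41, edgeR adjusted p = 0.379). Pygm, the muscle-type phosphorylase, was separated by a small margin, with 1.14 to 1.89 CPM in the controls and 1.93 and 1.98 CPM in the others (edgeR adjusted p = 0.585). Phkg1 was near the floor, with 2 to 14 counts per control and 18 and 28 counts in the others (log2 fold change 1.32, SE 0.613, edgeR adjusted p = 0.414), and it shares 630 exonic bases with Sumf2 on the opposite strand. Pgm3, which acts on N-acetylglucosamine phosphate, had 33.0 to 34.7 CPM in the controls and 30.9 CPM in each of the others (log2 fold change -0.14, edgeR adjusted p = 0.453), and it shares 1270 exonic bases with Dop1a on the opposite strand.

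**Figure D3:**
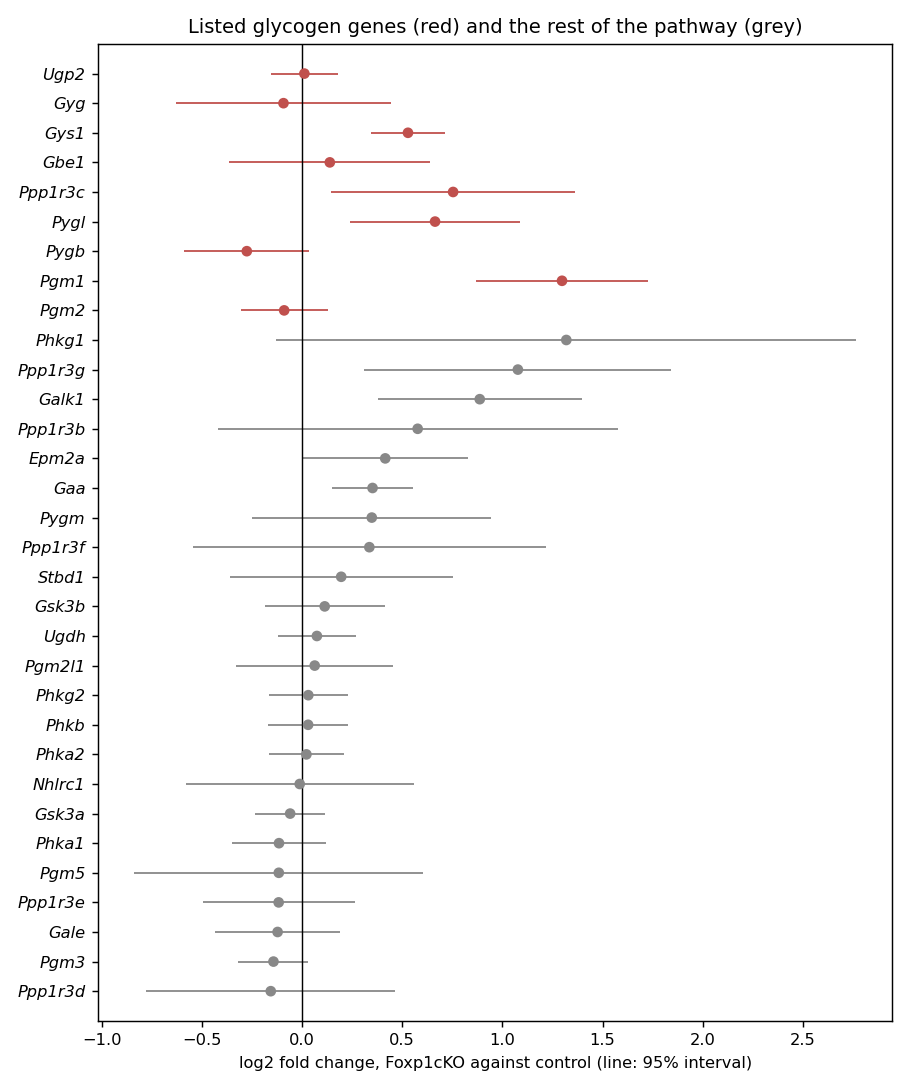
Log2 fold changes of the libraries labelled Foxp1cKO against controls (horizontal axis) from edgeR, with 95% intervals as lines, for the 9 glycogen genes (red) and the 23 other genes of the pathway (grey). The intervals of Gys1, Ppp1r3c, Pygl and Pgm1 lie above 0 among the red genes, and those of Ppp1r3g, Galk1, Epm2a and Gaa among the grey, none of which passes the adjusted threshold.

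Glycolysis, which shares glucose 6-phosphate with this pathway, was read beside it. Of 19 listed glycolysis genes, 4 rose past edgeR's adjusted threshold (Slc2a3, Gpi1, Pfkl and Aldoa), against 0.152% of all genes, and 16 had an unadjusted p under 0.05 in the higher direction, against 6.53%. The count of 4 was 12 with DESeq2 and 8 without control 4. It was 0 without control 1, control 2 or either library labelled Foxp1cKO, and 0 with the replicate number as a block. The median log2 fold change over these 19 was 1.10, against 0.14 over the 9 glycogen genes. Gpi1, the isomerase that works on glucose 6-phosphate next to phosphoglucomutase, rose by a log2 fold change of 1.41 (SE 0.109, edgeR adjusted p = 0.00963). Pgm1, at 1.30, lay within the range of the glycolysis genes, and Gys1, Pygl and Ppp1r3c lay under their median. The difference between the lists was not tested.

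**Figure D4:**
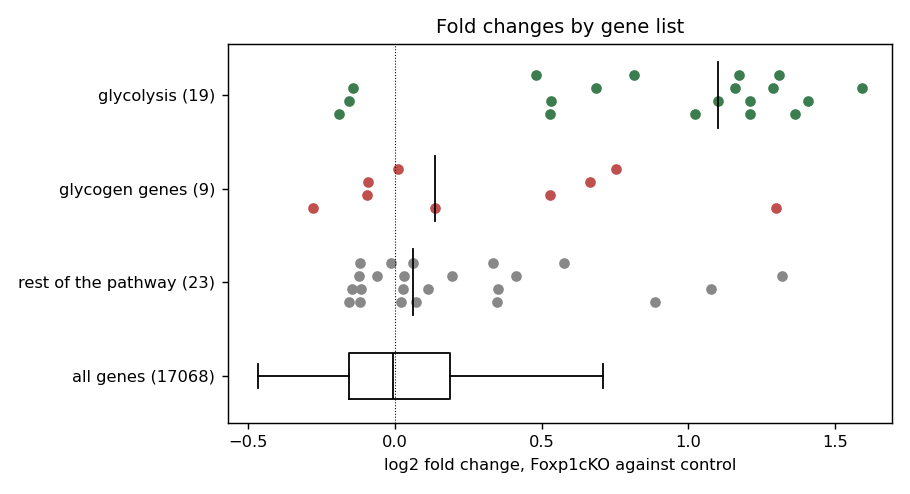
Log2 fold changes of the libraries labelled Foxp1cKO against controls (horizontal axis), with 1 point per gene and a vertical line at each list's median, for 19 glycolysis genes, the 9 glycogen genes and 23 other genes of the pathway. The box for all 17068 genes spans the quartiles with its median line, and its whiskers reach percentiles 5 and 95, at -0.46 and 0.71. Pgm1 and Ppp1r3c are the red points past the upper whisker.

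Control 4, whose red cell marker sum was nearest to the libraries labelled Foxp1cKO, was the highest control for Pgm1, Pygl, Gyg and Gbe1, but not for Gys1 or Ppp1r3c. Control 4 also had the lowest neuron marker sum, 1506 CPM against 2298 to 2905 CPM in the other controls, and the highest dorsal sum, 870.2 CPM. For Pgm1 it had 31.7 CPM against 19.3 to 27.0 CPM in the other controls, and for Pygl 2.46 against 2.08 to 2.28 CPM. Leaving control 4 out gave log2 fold changes of 1.43 for Pgm1, 0.72 for Pygl, 0.53 for Gys1 and 0.76 for Ppp1r3c. The part of these marker sums in the values of control 4 was not tested. Hif1a, which encodes an oxygen-regulated factor controlled mostly at the protein level, had a log2 difference of 0.058 (95% interval -0.16 to 0.28).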

How the data were processed

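Bulk RNA was measured in 6 libraries, grouped by genotype in the labels (4 control, 2 Foxp1cKO). Per the labels, a stranded kit was used. Reads were mapped to mm10 with STAR by the authors, who made gene counts with HTSeq 0.9.1 (union mode) and dropped low-count genes. The deposited counts are whole and unnormalized, and the authors also deposited VST values, on a log2-like scale. The strand setting of the counting is not given in the sources used here, so reads of genes that overlap on opposite strands may be mixed. Litter, a term of the authors' model, was not used here.

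Counts were fitted in R 4.3.3 with edgeR 4.0.16 (TMM, quasi-likelihood test, group alone, all 17068 genes, Benjamini-Hochberg adjustment, threshold 0.05). No low-count filter was added. Folds, SEs and intervals come from that fit, and log2 CPM used a prior count of 2. RPKM used joined exon lengths from GENCODE M21 (GRCm38), in which 17047 identifiers were found. Alternatives were DESeq2 1.42.0, limma 3.58.1 on VST values, a robust edgeR fit, other scalings, a mean CPM of at least 1, each library left out, and the replicate number as a block. Tests were tried on simulated data. Library totals and the floor of 3 counts, given with the values, set the depth. Each library is a separate embryo by its label.

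The 9 genes and the other lists were chosen with earlier results of these data known. Named were the 9 genes, called, separated and some other genes of the other lists, some cell type markers, overlapping genes, Foxp1 and Hif1a. Also named, for each of the 9, were the 3 most correlated genes with a mean of at least 1 CPM, of which some are given. Some genes under these lists and this rule are not reported here, and list counts leave them out.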

Additional observations from a re-analysis of the deposited data

Results flagged for a closer look

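The 34 genes checked were those of the glycogen and UDP-glucose lists in the table, with the overlapping genes Itgb3bp and Ruvbl2. Among them, the 4 controls held 1 library far from the rest for 1 gene. A gap was marked where it passed Dixon's 95% critical value as a share of the control range, and chance alone marks about 5% of such groups. Phkg1, a catalytic subunit of phosphorylase kinase, had 0.0254 CPM in control 4, under the floor of 3 counts, next to 0.177 CPM in the nearest control, a gap of 0.901 of the range.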

How the results depend on the processing

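The number of glycogen genes past the threshold was 0 of 9 with edgeR, and stayed 0 with limma, a robust fit, DESeq2's size factors, total counts, a mean of at least 1 CPM and the replicate block. It was 3 with DESeq2 and 0 to 1 with each library left out, Pgm1 being the 1 without control 4. For all genes, 26 passed, against 507 with DESeq2 (310 higher, 197 lower), 0 with the replicate block, and 2 (without control 2) to 96 (without control 4) with each library left out. It was 6 without control 1, 9 without Foxp1cKO 1 and 3 without Foxp1cKO 2. Of the other pathway genes 0 passed, and 2 with DESeq2. Of glycolysis genes 4 passed, against 12 with DESeq2, 0 with the replicate block, and 0 to 8 with each library left out (8 without control 4, and 0 without control 1, control 2 or either Foxp1cKO library). Leaving out a library leaves fewer samples, and with 1 library labelled Foxp1cKO its spread is taken from the controls.

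Shared replicate numbers 1 and 2 came from different embryos. Deviations from the group means correlated at -0.198 and 0.0157 for libraries of the same number. The deviations of the 2 libraries labelled Foxp1cKO mirror each other, so crossing the numbers only turns the sign. These values therefore cannot decide whether the numbers pair the libraries. Crossing the numbers, a choice made after seeing the data, gave 1301 called genes (842 higher, 459 lower) and 3 of the 9 glycogen genes, 2 higher and 1 lower.

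Among the 9 genes, the sign turned for Ugp2, Gyg and Gbe1. The log2 value of Ugp2 was -0.012 without control 1, -0.0015 without control 3, -0.0055 without control 4, -0.013 without Foxp1cKO 2 and -0.011 with the replicate block, and at most 0.030 (without control 2). With each library left out, Gyg ran from -0.24 to 0.069 (without control 4) and Gbe1 from -0.012 (without control 3) to 0.26. The cause was not tested. Gys1, Pgm1, Pygl and Ppp1r3c stayed above 0, and Pygb and Pgm2 below 0, in all 13 alternatives of each gene. Depth limits Phkg1 and Ppp1r3f most among the genes named, with 2 to 14 and 9 to 18 counts per control.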

Other observations

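Phosphorylase and synthase are controlled by phosphorylation. Of the phosphorylase kinase subunits, the log2 fold change was -0.12 for Phka1, 0.021 for Phka2, 0.030 for Phkb and 0.031 for Phkg2, and their libraries overlapped between the groups. Phkg1, the remaining subunit in the table, had a log2 fold change of 1.32 (SE 0.613, edgeR adjusted p = 0.414) and no overlap, at the low counts given above. Phkg2 shares 876 exonic bases with Ccdc189, and Gsk3a 820 with 9130221H12Rik, both on the opposite strand. The synthase kinases Gsk3a and Gsk3b had log2 fold changes of -0.060 and 0.11. Among the other subunits that bring protein phosphatase 1 to glycogen, Ppp1r3e had 10.8 to 15.2 CPM in the controls. It had 12.3 and 11.3 CPM in the libraries labelled Foxp1cKO (log2 fold change -0.12, edgeR adjusted p = 0.793). Ppp1r3d had a log2 fold change of -0.16, and both genes overlapped between the groups. Ppp1r3b had 34 to 90 counts per control and 56 and 111 counts in the libraries labelled Foxp1cKO. Ppp1r3f had 9 to 18 counts per control and 10 and 20 counts in the others. For Ppp1r3b and Ppp1r3f, little could be seen at this depth. Ppp1r3f also shares 2415 exonic bases with Gm36995 on its own strand.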
